A study of Mus musculus with 24 samples.

Results

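The change, between embryonic day 17.5 (ED17.5) and postnatal day 4 (PND4), in what the loss of steroidogenic factor 1 does to the mouse ovary was measured here gene by gene. Steroidogenic factor 1 (SF-1) is the orphan nuclear receptor encoded by Nr5a1. The measure is a difference of differences: the log2 ratio of knockout to control at PND4 minus the same ratio at ED17.5, called the age difference of the effect below. The rule that chose the samples takes 16 of the 24 libraries of the series, 4 of each genotype at each age. The tests were repeated without 1 knockout library that holds testis transcripts, which leaves 15. Values are from all libraries unless said otherwise, and not every value is given from both fits. All 4 groups were whole ovaries of mice with both Nr5a1 alleles floxed. Knockouts (cKO; Nr5a1 f/f, Amhr2-cre Tg/+) carried a cre transgene, and the littermate controls (Nr5a1 f/f, Amhr2-cre +/+) did not, so the deletion of Nr5a1 and the presence of cre cannot be told apart. Each library pooled the ovaries of 5 mice at ED17.5 and of 3 to 5 mice at PND4, and the p-values measure the spread between such pools. The remaining 8 libraries, from postnatal day 1 (PND1), did not enter the age difference or the sorting rule and give the age between. They were part of the fitted model, so they shared in the gene filter, the scaling and the estimate of spread behind each call. With the 16 libraries alone, 577 genes had an age difference at the threshold used below, against 832 with all 24.

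SF-1 binds DNA as a monomer and is known for switching on steroidogenic enzymes in the adrenal gland and gonads, and for a role in the early bipotential gonad. In the ovary around birth, nests of germ cells break apart and single oocytes become enclosed by flat pregranulosa cells, which forms the store of primordial follicles. The cre used here is driven by Amhr2, a receptor gene for anti-Müllerian hormone, which is active in somatic cells of the gonad and not in germ cells. Over the same days many oocytes are lost, the stroma and vessels grow, and the earliest follicles of the medulla begin to grow. Bone morphogenetic protein (BMP), Notch, Wnt and Kit ligand signals between somatic cells and oocytes take part in these steps.

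The libraries held 11361365 to 13571755 counted reads and 23651 to 24620 genes with a read. ED17.5 knockout replicate 3 stood apart: the Y-linked genes Ddx3y, Kdm5d, Uty and Eif2s3y were at 36.1, 30.7, 18.4 and 26.7 CPM (counts scaled to library size), against at most 3.00 for each in any other ED17.5 library, and Insl3, a Leydig cell hormone, was at 55.3 CPM against at most 0.0819. Its summed Leydig cell markers were at 1378 CPM against 27.8 to 39.9 in the other ED17.5 knockouts. The summed level of the Y-linked genes was 112 CPM in that library and 6.32 in ED17.5 knockout replicate 1. It was 0.164 to 1.64 CPM in the remaining ED17.5 libraries. The ED17.5 libraries numbered 13 to 24, 4 of both genotypes, held Zp3, an oocyte coat gene, at 6.65 to 11.8 CPM, and the 4 numbered 1 to 12 at 0.0797 to 0.385, so this split crossed the genotypes evenly. Zp3 was at 399 to 862 CPM in all PND4 libraries.

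Nr5a1 itself (chr2:38692656-38714542, minus strand, GRCm38) was at 152, 150, 120 and 167 CPM in the ED17.5 controls and at 73.1, 62.3, 165 and 62.1 CPM in the knockouts, the value of 165 being that of replicate 3. The PND4 levels were 132, 142, 149 and 146 CPM in controls and 82.3, 78.7, 62.5 and 63.1 in knockouts. Apart from replicate 3 the groups did not overlap at either age, and the counts include reads from parts of the gene outside the deletion. Its log2 effect was -0.70 at ED17.5, or -1.17 without replicate 3, and -0.99 at PND4. Its age difference was -0.28 ± 0.32 (SE, adjusted p = 0.675), or 0.18 (adjusted p = 0.595) without that library. Amhr2, the gene whose promoter drives cre, was at 252 to 320 CPM in ED17.5 controls and 54.6 to 72.1 in knockouts, and at 263 to 280 and 52.2 to 80.3 CPM at PND4. Its effect was -2.22 at ED17.5 and -2.14 at PND4, with an age difference of 0.08 ± 0.16 (adjusted p = 0.83).

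The knockout changed many genes at each age, and for a small share of genes the size of that change differed between the ages. At an adjusted p below 0.05 (edgeR), 4040 of 17435 genes (23.2%) differed at ED17.5 and 3999 (22.9%) at PND4. Of these 2022 were called at both ages, which is 50.05% of the first list and 50.6% of the second, and 1964 of these had the same sign. The age difference itself passed for 832 genes (4.77%): 488 (2.8%) above 0, where the knockout-to-control ratio was higher at PND4, and 344 (1.97%) below 0. Without ED17.5 knockout replicate 3 it passed for 806 of 17686 genes (4.56%), and 667 of them were among the 832, all with the same sign. Of the 2018 genes called at ED17.5 alone, 302 had an age difference, and of the 1977 called at PND4 alone, 303 did, so for most of these genes the effects at the 2 ages were not shown to differ. The median age difference over all genes was 0.03, and -0.01 with the DESeq2 size factors, with which 383 genes passed above 0 and 431 below. The share above 0 was thus 58.7% with the trimmed mean scaling and 47.1% with the other.

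**Figure D1:**
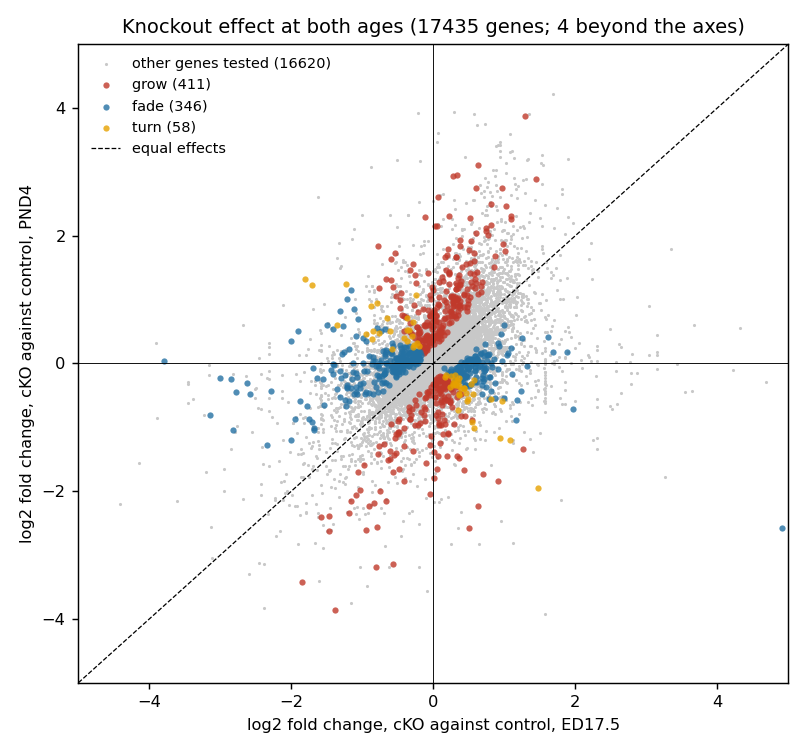
Log2 effect of the knockout at ED17.5 (x axis) and at PND4 (y axis) for 17435 genes, with the dashed line marking equal effects; 4 genes lie beyond the axes. Red points are the 411 genes whose effect grew, blue the 346 whose effect faded and gold the 58 whose effect turned; the blue points crowd near 0 on the y axis, the red near 0 on the x axis, and the gold lie at the upper left and lower right.

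The 832 genes were sorted by the effects at both ages. An effect grew where it was called at PND4 and larger there (411 genes, 243 higher and 168 lower in PND4 knockouts). It faded where it was called at ED17.5 and larger there (346 genes: 212 lower and 134 higher in ED17.5 knockouts). It turned where it was called at both ages with opposite signs (58 genes, 25 from lower to higher and 33 from higher to lower), and 17 genes met none of these. Without replicate 3 the counts were 393, 336, 59 and 18, and the genes placed alike in both fits were 192 and 132 that grew up and down, 167 and 93 that faded from below and above, and 19 and 19 that turned. Of 98 genes followed through every alternative, Nr5a1, Amhr2, Lgr5, Foxl2, Amh, Cyp11a1, Cyp17a1, Star, Hsd3b1 and Irx3 had no call with all libraries. Of the rest, 35 lost the call when the 4 ED17.5 libraries numbered 1 to 12 were left out and 27 when those numbered 13 to 24 were.

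The PND1 effect, which the sorting did not use, lay between the ages and nearer PND4 than ED17.5 in the median of genes that grew, faded or turned, in either direction. Genes that grew upward had median log2 effects of 0.11, 0.72 and 0.89 at ED17.5, PND1 and PND4, and 196 of 243 (80.7%) were called higher at PND1, beside 75.4% of the genes called higher at PND4 without an age difference. Genes that grew downward had medians of 0.05, -0.42 and -0.75, and 112 of 168 (66.7%) were called lower at PND1, beside 66.8%. The falls that faded had medians of -0.67, -0.24 and -0.01. Of these, 95 of 212 (44.8%) were called lower at PND1, beside 53.8% of the genes called lower at ED17.5 without an age difference. The rises that faded had medians of 0.59, 0.03 and -0.08. Of these, 34 of 134 (25.4%) were called higher at PND1, beside 64.3% of the genes called higher at ED17.5 without an age difference. The PND1 background of all genes called was 24% (13.2% higher and 10.7% lower). Genes that turned upward went through -0.58, 0.22 and 0.51, and those that turned downward through 0.37, -0.15 and -0.38.

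**Figure D2:**
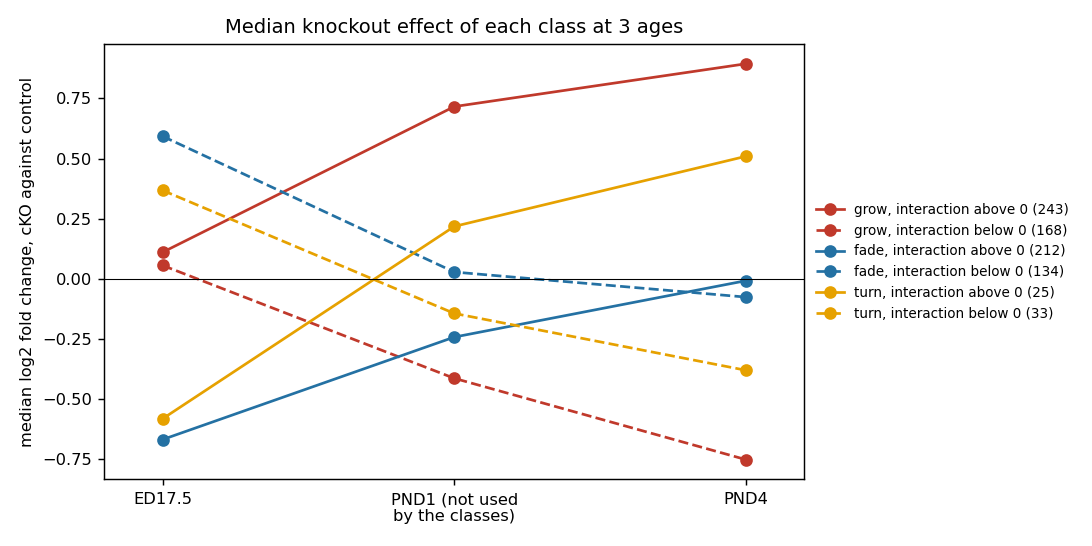
Median log2 effect of the knockout (y axis) at ED17.5, PND1 and PND4 (x axis) for genes that grew, faded or turned; solid lines are age differences above 0 and dashed lines below 0. At ED17.5 and PND4 the medians are set by the sorting. At PND1, whose effect the sorting did not use, the genes that grew upward were at 0.72 and the rises that faded at 0.03.

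Because an age difference equals the age change in knockouts minus that in controls, both were compared. Of all genes, 58.7% changed with age in controls and 59.6% in knockouts. Among the 832, 249 changed with age in controls alone, 208 in knockouts alone, 295 in both with the same sign and 80 in both with opposite signs. Genes that grew upward had a median age change of -0.45 in controls and 0.25 in knockouts, and genes that grew downward 0.32 and -0.34. Genes that turned upward had -0.93 and 0.27, and those that turned downward 0.55 and -0.30. The opposite signs follow from how the genes were chosen and are given as a description.

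The effects that grew upward included those of Angptl7, Meox1 and Tnc. Angptl7 (chr4:148495183-148500460), a secreted angiopoietin-like protein, was at 10.0, 10.9, 14.3 and 7.36 CPM in ED17.5 controls and 34.3, 21.2, 23.8 and 24.5 in knockouts. The PND4 levels were 0.743, 1.25, 0.858 and 0.699 CPM in controls and 13.6, 10.3, 16.7 and 12.4 in knockouts. The groups did not overlap at either age. For genes named as the largest of their kind, no overlap at the age of the larger effect was a condition of the choice. The effect of Angptl7 was 1.28 at ED17.5, 3.32 at PND1 and 3.87 at PND4, with an age difference of 2.58 ± 0.36 (adjusted p = 9.32e-05). Meox1 (chr11:101877510-101894374), a homeobox gene of mesenchyme, was at 9.13, 9.83, 13.5 and 9.33 CPM in ED17.5 controls and 21.9, 18.9, 16.2 and 16.3 in knockouts, and at PND4 at 8.76, 7.27, 7.46 and 8.22 against 36.5, 41.4, 55.5 and 45.4. Its control levels were alike at both ages while the PND4 knockouts stood above all ED17.5 knockouts. This gave an effect of 0.81 against 2.49 and an age difference of 1.69 ± 0.18 (adjusted p = 3.86e-06). Tnc, the matrix glycoprotein tenascin-C, was at 108 to 166 and 89.2 to 128 CPM in ED17.5 and PND4 controls, at 267, 232, 170 and 224 CPM in ED17.5 knockouts and at 421, 507, 533 and 495 in PND4 knockouts, with an age difference of 1.38 ± 0.21 (adjusted p = 0.000382).

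Igfbp3, a binding protein that holds insulin-like growth factors, was at 106, 101, 136 and 100 CPM in ED17.5 controls and 137, 173, 136 and 129 in knockouts, so that the groups overlapped. By PND4 the controls were at 62.0, 70.9, 72.2 and 55.4 CPM and the knockouts at 212, 199, 283 and 234, far apart. The effect went from 0.38 over 1.42 at PND1 to 1.83, an age difference of 1.45 ± 0.16 (adjusted p = 4.61e-06). Igf2, the growth factor itself, and H19, the imprinted RNA next to it, had age differences of 0.68 (adjusted p = 0.0456) and 0.80 (adjusted p = 0.0264) that did not pass without ED17.5 knockout replicate 3 (adjusted p = 0.0799 and 0.0505). Counting that fit, they were lost in 14 and 6 of 16 fits leaving out 1 library (adjusted p up to 0.107 and 0.0736).

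Pecam1, an adhesion molecule of endothelium, was at 80.3, 73.2, 86.8 and 72.6 CPM in ED17.5 controls, close to the 90.6, 93.7, 92.6 and 95.1 of the knockouts (effect 0.25, adjusted p = 0.0617). By PND4 it was at 54.6, 54.2, 48.5 and 39.8 CPM in controls and 114, 88.9, 117 and 89.9 in knockouts (effect 1.06), an age difference of 0.81 ± 0.14 (adjusted p = 0.000817). Emcn, endomucin, a surface protein of veins and capillaries, had effects of 0.19 and 0.89 and an age difference of 0.71 ± 0.17 (adjusted p = 0.0183), which did not pass without ED17.5 knockout replicate 4 (adjusted p = 0.0511). Of 14 tested endothelial genes, 8 were called higher at ED17.5 (11.1% of all genes were) and 13 at PND4 (12.6% of all genes). Their median effect was 0.50 and 0.85, and Pecam1 and Emcn were the 2 with an age difference, both above 0 (2.8% of all genes). Their summed level was 556 to 627 CPM in controls and 780 to 890 in knockouts at ED17.5, and 384 to 556 against 756 to 926 at PND4, so the control level was lower at PND4 and the knockout level was not. More cells of a type and more RNA per cell cannot be told apart in whole ovaries.

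Of 16 tested genes of complement and interferon response, 3 had an age difference above 0 (2.8% of all genes) and 1 below 0 (1.97%). The effect of C4b grew upward, the falls of C1ra and Ifit3 faded, and the rise of H2-K1, a class I histocompatibility gene, faded. Ifi204, Mndal and Hc, which are not in that list, also grew upward. Ifi204, an interferon-inducible gene, was at 2.45 to 3.30 CPM in PND4 controls and 22.1 to 28.8 in knockouts, with an effect of 0.63 at ED17.5 (adjusted p = 0.128), 1.93 at PND1 and 3.10 at PND4 and an age difference of 2.47 ± 0.39 (adjusted p = 0.000436), or 1.58 (adjusted p = 0.0388) without the ED17.5 libraries numbered 13 to 24. Mndal, of the same multigene cluster, whose members may share reads, went from 0.05 to 2.15 (age difference 2.10, adjusted p = 0.000115). C4b, complement component 4, went from -0.54 (adjusted p = 0.353) to 1.73, an age difference of 2.27 ± 0.56 (adjusted p = 0.0185) that did not pass without ED17.5 control replicate 1 (adjusted p = 0.0561). Hc, complement component 5, had effects of -0.78 (adjusted p = 0.119) and 1.83 (age difference 2.61, adjusted p = 0.0127). Macrophage and leukocyte markers were called higher for 8 of 14 at ED17.5 (11.1% of all genes) and 13 at PND4 (12.6%), with medians of 0.63 and 1.13. None had an age difference by edgeR or DESeq2, and 5 had one above 0 at an unadjusted p under 0.05 (edgeR). Their summed level was 306 to 467 CPM in ED17.5 knockouts and 288 to 548 in PND4 knockouts, against 228 to 312 and 164 to 204 in controls. The part of these cells in the immune genes that grew was not tested.

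The effects of Grik1 and Syt1 also grew upward. Grik1, a kainate glutamate receptor subunit, was at 10.5, 15.0, 18.6 and 10.9 CPM in ED17.5 controls and 18.4, 17.3, 10.9 and 22.5 in knockouts, overlapping, and at 1.32, 2.13, 1.03 and 2.10 against 5.10, 13.3, 21.1 and 12.1 at PND4, where they did not overlap. Its age difference was 2.63 ± 0.46 (adjusted p = 0.00143), and that of Syt1, a calcium sensor of synaptic vesicles, was 0.84 (adjusted p = 0.000487). Among Wnt genes, Lgr6, a receptor for R-spondins, had effects of 0.74, 3.06 and 2.08 at ED17.5, PND1 and PND4 (age difference 1.33, adjusted p = 0.0101), and Dkk3, a secreted Dickkopf family protein, of 0.43 and 1.09 (0.66, adjusted p = 0.00894). Boc, a co-receptor for hedgehog ligands, had an age difference of 0.50 (adjusted p = 0.00161), from -0.13 (adjusted p = 0.144) to 0.37. Tgm1, a transglutaminase, went from 0.07 to 2.60 (2.53, adjusted p = 0.0116) and Fam107a from -0.60 (adjusted p = 0.279) to 1.64 (2.24, adjusted p = 0.0154). Pdgfrb, the platelet-derived growth factor receptor of mesenchyme and pericytes, had effects of 0.85 and 1.505, and its age difference of 0.66 (adjusted p = 0.0498) was lost in 11 of 16 fits that left out 1 library, with an adjusted p of up to 0.112.

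The effects that grew downward included those of Plau, Ky and Grhl3, which went up with age in control ovaries. Plau, the urokinase-type plasminogen activator, a protease that acts on matrix, was at 22.9, 23.0, 23.8 and 23.6 CPM in ED17.5 controls and 15.5, 14.8, 15.6 and 15.4 in knockouts. At PND4 it was at 48.8, 46.7, 43.9 and 46.9 CPM in controls and 18.2, 16.6, 13.2 and 18.0 in knockouts. The replicates were tight and the groups apart at both ages: the age change was 1.00 in controls and 0.11 in knockouts (adjusted p = 0.385), and the age difference was -0.89 ± 0.14 (adjusted p = 0.000566). Ky, a peptidase gene of muscle, was at 2.99 to 3.77 and 2.15 to 4.08 CPM in ED17.5 controls and knockouts, and at 14.9 to 19.1 and 2.59 to 5.47 at PND4 (age difference -1.99 ± 0.29, adjusted p = 0.000181). Grhl3, a grainyhead transcription factor of epithelia, was at 0.328 to 0.779 CPM in ED17.5 controls and 0.239 to 1.66 in knockouts, at 19.7, 21.7, 17.8 and 20.7 in PND4 controls and at 6.67, 5.73, 5.64 and 6.09 in PND4 knockouts. Its age difference was -2.42 ± 0.45 (adjusted p = 0.00196), or -1.69 (adjusted p = 0.0235) without replicate 3.

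Gpr55 (chr1:85938318-85961007), a receptor for lysophospholipids, was at 8.44, 7.70, 6.78 and 9.76 CPM in ED17.5 controls and 3.81, 4.08, 2.45 and 2.07 in knockouts. In PND4 ovaries it was at 6.36, 6.39, 13.0 and 8.74 CPM in controls and 0.942, 0.611, 0.414 and 0.348 in knockouts. It was lower in every knockout at both ages, by -1.39 and -3.86, an age difference of -2.46 ± 0.41 (adjusted p = 0.000655). Rarres1, a retinoic acid responsive gene, was at 2.57 to 3.60 CPM in ED17.5 controls and 1.35 to 2.29 in knockouts, and at 5.7998 to 10.4 and 0.628 to 1.22 at PND4 (age difference -2.38, adjusted p = 0.000293). Aldh1a2, an enzyme that makes retinoic acid, was at 206, 239, 260 and 204 CPM in ED17.5 controls and 231, 217, 159 and 228 in knockouts, overlapping, and at 273, 266, 283 and 328 against 103, 160, 187 and 163 at PND4. Its effect was -0.12, -0.23 and -0.91 at ED17.5, PND1 and PND4 and its age difference was -0.79 ± 0.19 (adjusted p = 0.0162). It was the 1 of 13 retinoic acid genes with an age difference (4.77% of all genes had one).

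Axin2, a feedback target of Wnt and beta-catenin signalling, fell by 0.50, 0.70 and 1.10 on the log2 scale at ED17.5, PND1 and PND4 (age difference -0.60 ± 0.12, adjusted p = 0.00473). Hes1, a repressor induced by Notch, had effects of -0.14 (adjusted p = 0.346), -0.63 and -0.81 (age difference -0.67, adjusted p = 0.00501, or -0.44, adjusted p = 0.0708, without the ED17.5 libraries numbered 13 to 24). Lgr5, a receptor for R-spondins that marks pregranulosa cells near the surface, was at 127, 152, 141 and 159 CPM in ED17.5 controls and 36.7, 33.7, 28.3 and 31.1 in knockouts, and at 103, 118, 120 and 124 against 14.5, 17.0, 26.0 and 18.2 at PND4. Its effect was -2.16 and -2.62, and the age difference of -0.46 did not pass (adjusted p = 0.144) except without PND4 knockout replicate 3 (-0.65, adjusted p = 0.013). Irx3, an Iroquois homeobox gene of pregranulosa cells, had effects of -1.79 and -2.34 and an age difference of -0.55 (adjusted p = 0.0978), which was -0.68 (adjusted p = 0.0104) without ED17.5 knockout replicate 3. Rasl10a, a small GTPase, was at 0.492 to 0.690 and 0.239 to 1.58 CPM at ED17.5 and at 4.46 to 6.69 and 0.784 to 1.68 at PND4 in controls and knockouts (-2.86, adjusted p = 0.00143). Zyg11a and the antisense RNA Uckl1os had age differences of -1.77 (adjusted p = 0.00179) and -1.81 (adjusted p = 0.00235). The strand setting of the counting, which bears on antisense genes, is not given in the sources used here. Pkhd1l1, with ED17.5 knockout values of 28.5, 102, 28.8 and 110 CPM, had an age difference of -1.84 (adjusted p = 0.0444) that was lost in 14 of 16 fits leaving out 1 library (adjusted p up to 0.0947), and was -0.65 (adjusted p = 0.412) without the ED17.5 libraries numbered 1 to 12, which hold both high values.

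The falls that faded included those of the pregranulosa ligands Bmp2 and Kitl. Bmp2 (chr2:133552159-133562885), a BMP ligand expressed by pregranulosa cells of the fetal ovary, was at 40.3, 41.5, 41.4 and 44.8 CPM in ED17.5 controls and 19.9, 14.5, 15.7 and 17.0 in knockouts. At PND4 it was at 8.09, 8.15, 9.26 and 6.29 CPM in controls and 8.64, 7.18, 6.71 and 6.79 in knockouts, overlapping. Its effect was -1.32, -0.58 and -0.12 (adjusted p = 0.607) at ED17.5, PND1 and PND4, an age difference of 1.205 ± 0.18 (adjusted p = 0.000259). The level in controls fell by 2.40 on the log2 scale with age and that in knockouts fell by 1.19. Bmpr1b, a type I BMP receptor, was at 27.5, 26.8, 22.4 and 28.1 CPM in ED17.5 controls and 13.2, 13.1, 8.86 and 12.2 in knockouts, and at 54.1, 55.1, 49.7 and 52.6 against 48.8, 45.2, 36.7 and 48.0 at PND4. It went up with age in both, by 1.01 in controls and 1.92 in knockouts (age difference 0.90 ± 0.16, adjusted p = 0.00135). Kitl, the ligand through which granulosa cells act on the oocyte's Kit receptor, was at 954, 1078, 771 and 1049 CPM in ED17.5 controls and 483, 469, 351 and 412 in knockouts, and at 336, 329, 412 and 378 against 258, 299, 240 and 323 at PND4. Its groups stayed apart at both ages, but the effect went from -1.17 to -0.38 (adjusted p = 0.0236), an age difference of 0.79 ± 0.17 (adjusted p = 0.0074), or 0.65 (adjusted p = 0.104) without the ED17.5 libraries numbered 1 to 12.

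Of 19 tested pregranulosa genes, 16 were called lower at ED17.5 (12% of all genes were) and 14 at PND4 (10.3% of all genes), none was called higher, and their median effect was -1.03 and -0.66. Bmp2 and Kitl were the 2 with an age difference above 0 (2.8% of all genes). At an unadjusted p under 0.05 there were 3 above and 5 below 0. Without ED17.5 knockout replicate 3, 14 pregranulosa genes were called lower at ED17.5 (11.2% of all genes) and 1 higher. In that fit 2 had an age difference above 0 (2.68% of all genes) and 1 below 0 (1.88%). Foxl2, the forkhead factor that maintains ovarian identity in granulosa cells, had effects of -0.69, -0.50 and -0.32 (adjusted p = 0.166) at the 3 ages, and its age difference of 0.36 ± 0.23 did not pass (adjusted p = 0.404).

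Cyp2f2 (chr7:27119909-27133660), a cytochrome P450 enzyme, was at 6.21, 6.14, 5.45 and 7.28 CPM in ED17.5 controls and 1.05, 1.08, 1.35 and 0.558 in knockouts. In PND4 ovaries it was at 5.37, 4.92, 4.89 and 5.77 CPM in controls and 4.40, 4.12, 4.56 and 3.83 in knockouts. The age change was -0.26 in controls and 2.06 in knockouts, an effect of -2.62 against -0.31 (adjusted p = 0.207) and an age difference of 2.32 ± 0.26 (adjusted p = 4.3e-06). Trim66, a tripartite motif protein, was at 11.8 to 18.7 CPM in ED17.5 controls, at 2.06 to 3.64 in ED17.5 knockouts, and at 2.06 to 3.26 and 1.74 to 2.28 at PND4 (2.11, adjusted p = 9.32e-05). Slc6a7, a proline transporter, was at 4.36 to 6.25 and 0.396 to 0.972 CPM at ED17.5, and at 10.1 to 18.9 and 6.80 to 18.7 at PND4 (2.60, adjusted p = 0.00405). Both faded: Trim66 was at PND4 near its low ED17.5 knockout level in both genotypes, and Slc6a7 was higher at PND4 than at ED17.5 in both. Oprk1, the kappa opioid receptor, was at 14.0, 14.3, 9.58 and 15.0 CPM in ED17.5 controls and 2.11, 1.77, 0.950 and 1.12 in knockouts, and below 1 CPM in all PND4 libraries. Its effect was -3.14, -4.66 at PND1 and -0.80 (adjusted p = 0.272) at PND4. The age difference of 2.34 ± 0.61 (adjusted p = 0.0258) was lost without PND4 knockout replicate 2, 3 or 4 (adjusted p = 0.0873, 0.0584 and 0.0695).

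Among immune genes, C1ra, a complement protease, faded from -0.58 to 0.31 (adjusted p = 0.108; age difference 0.90, adjusted p = 0.00861), and Ifit3, an interferon-induced gene, from -1.31 to 0.82 (adjusted p = 0.0913; age difference 2.13, adjusted p = 0.0081). Fndc7, Lrrc66 and Igfn1 had age differences of 2.33, 2.24 and 2.10 (adjusted p = 0.00926, 0.0128 and 0.00718). In each of these 5 genes the effect at PND4 did not pass.

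The rises that faded included 4 genes of cell proliferation. Of 22 tested, 19 were called higher at ED17.5 by edgeR (11.1% of all genes) and none at PND1 or PND4, where none passed by DESeq2 or at an unadjusted p under 0.05 either. Their median effect was 0.56, 0.04 and 0.13 at ED17.5, PND1 and PND4. Of these, 4 had an age difference, all below 0, beside 1.97% of all genes, and 3 had one without ED17.5 knockout replicate 3 (1.88% of all genes). Leaving out 1 library gave 1 to 10 such genes: 10 without ED17.5 knockout replicate 1, and 1 without ED17.5 knockout replicate 2 or 4, PND4 knockout replicate 3 or PND4 control replicate 3. Bub1, a kinase of the spindle checkpoint, was at 90.2, 94.5, 87.1 and 101 CPM in ED17.5 controls and 121, 119, 132 and 137 in knockouts, and at 81.1, 82.4, 71.2 and 86.2 against 76.6, 85.0, 87.1 and 77.8 at PND4. The groups were apart before birth and overlapped at PND4, an effect of 0.45 against 0.03 and an age difference of -0.42 ± 0.10 (adjusted p = 0.0186). Kif11, a spindle motor, had ED17.5 knockout values of 113, 184, 147 and 202 CPM, and its age difference of -0.63 (adjusted p = 0.0445) was lost in 13 of 16 fits leaving out 1 library (adjusted p up to 0.0938). Cenpf, a kinetochore protein (-0.43, adjusted p = 0.0378), was lost in 7 such fits, and Tpx2, a spindle assembly factor (-0.50, adjusted p = 0.0345), in 10, among them the fit without replicate 3 (adjusted p = 0.0651). The summed level of the 22 genes was 2567, 2338, 2414 and 2306 CPM in ED17.5 controls and 2523, 3976, 3472 and 4401 in knockouts, so knockout replicate 1 lay within the control range and replicates 2 and 4, both among the libraries numbered 1 to 12, were the highest. Without the ED17.5 libraries of those numbers the age difference was -0.34 for Kif11 (adjusted p = 0.327), -0.29 for Tpx2 (adjusted p = 0.388) and -0.36 for Cenpf (adjusted p = 0.194). Without those numbered 13 to 24 it was -0.76 for Tpx2 (adjusted p = 0.00102), and that of Bub1 did not pass (-0.38, adjusted p = 0.129). At PND4 it was 2401 to 2652 in controls and 2612 to 3013 in knockouts.

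Notch1, a Notch receptor, was at 35.4, 23.1, 36.1 and 31.3 CPM in ED17.5 controls and 65.6, 58.9, 78.6 and 66.8 in knockouts, and at 46.1, 46.6, 48.5 and 40.6 against 63.2, 52.4, 52.0 and 47.5 at PND4. Controls went up with age by 0.53 and knockouts fell by 0.33, and the effect went from 1.10 over 0.49 at PND1 to 0.24 (adjusted p = 0.16), an age difference of -0.85 ± 0.17 (adjusted p = 0.00391). Of the 18 Notch genes, 9 were called higher at ED17.5 (11.1% of all genes) and 8 at PND4 (12.6%), and 1 had an age difference above 0 (2.8%) and 3 below 0 (1.97%): Dll1 above, and Notch1, Notch2 and Hes1 below. Dll1, a Notch ligand, and Notch2 had age differences of 0.78 (adjusted p = 0.0339) and -0.37 (adjusted p = 0.029), which did not pass without replicate 3 (adjusted p = 0.0635 and 0.0629). Counting that fit, they were lost in 10 and 6 of 16 fits leaving out 1 library. Without replicate 3, 6 Notch genes were called higher at ED17.5 and 8 at PND4. Ccnd1, cyclin D1, a target of Wnt and growth factor signals, was at 41.5, 35.97, 52.7 and 37.7 CPM in ED17.5 controls and 53.9, 73.7, 57.1 and 66.1 in knockouts, and at 81.1 to 86.6 against 66.4 to 85.7 at PND4. Its effect was 0.58, 0.70 and -0.12 (adjusted p = 0.484) over the 3 ages, an age difference of -0.70 (adjusted p = 0.00718). It was -0.38 (adjusted p = 0.2) without the ED17.5 libraries numbered 1 to 12 and -1.06 without those numbered 13 to 24.

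Tril, a co-receptor of toll-like receptors, was at 153, 101, 121 and 122 CPM in ED17.5 controls and 282, 216, 313 and 266 in knockouts, and at 181, 194, 212 and 149 against 171, 164, 165 and 152 at PND4. The groups were apart at ED17.5 and overlapped at PND4, an age difference of -1.29 ± 0.17 (adjusted p = 8.98e-05). Rab3b, a small GTPase of secretory vesicles, had an effect of 1.18 at ED17.5 and -0.58 (adjusted p = 0.0755) at PND4 (-1.76, adjusted p = 0.00174). Col11a2, a fibrillar collagen chain of cartilage, was at 4.02 to 5.14 CPM in ED17.5 controls and 9.65 to 16.9 in knockouts, and at 4.54 to 7.05 against 6.36 to 9.66 at PND4. Its effect was 1.62, 1.66 and 0.41 (adjusted p = 0.145) over the 3 ages (-1.21, adjusted p = 0.012). Adamts9, a matrix protease, went from 0.46 to -0.19 (adjusted p = 0.116; age difference -0.66, adjusted p = 0.00207). Ptgds, prostaglandin D synthase, which is also a Sertoli cell marker, was at 3.94 to 7.56 CPM in ED17.5 controls and 15.8, 15.4, 40.4 and 13.6 in knockouts, the value of 40.4 being that of replicate 3. Its age difference was -1.71 (adjusted p = 0.0074), and -1.19 (adjusted p = 0.00106) without that library. Pmaip1, a pro-apoptotic BH3 protein, went from 0.87 to -0.54 (adjusted p = 0.105; age difference -1.41, adjusted p = 0.0131).

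Genes of meiotic prophase had median effects of 0.28, -0.11 and -0.02 at ED17.5, PND1 and PND4. Their median age difference was -0.39, and -0.46 without ED17.5 knockout replicate 3, beside 0.03 over all genes. Of 29 tested, 7 were called higher and 1 lower at ED17.5 (11.1% and 12% of all genes), 3 lower at PND1 (10.7%), and 1 higher and 2 lower at PND4 (12.6% and 10.3%). An age difference passed for 2, both below 0 (1.97% of all genes). At an unadjusted p under 0.05 (edgeR), 12 were higher and 1 lower at ED17.5, and 8 age differences were below 0 and none above. Msh5, a MutS homologue of meiotic recombination, went from 0.70 to -0.19 (adjusted p = 0.472; age difference -0.89, adjusted p = 0.0201), which did not pass without PND4 control replicate 5 (adjusted p = 0.0506). Rad21l, a meiotic cohesin subunit, was at 12.9 to 21.8 and 15.6 to 19.8 CPM in ED17.5 controls and knockouts and at 2.15 to 4.02 and 0.942 to 1.74 at PND4, so its effect grew downward (-1.24, adjusted p = 0.0154). Of 12 germ cell genes of all stages none had an age difference by edgeR, also at an unadjusted p under 0.05, or by DESeq2. Of 21 genes of growing oocytes none passed by edgeR, 1 was above 0 at an unadjusted p under 0.05, and 1 passed by DESeq2. The summed growing-oocyte level was 136 to 352 CPM in ED17.5 controls and 71.5 to 314 in knockouts, and 9318 to 10323 against 7546 to 11517 at PND4.

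The effects that turned included those of the Id genes, which encode inhibitors of basic helix-loop-helix factors and are direct targets of BMP signalling. Id3 (chr4:136143497-136145755) was at 160, 172, 170 and 164 CPM in ED17.5 controls and 148, 143, 134 and 139 in knockouts, a small fall without overlap (-0.24, adjusted p = 0.00374). At PND4 it was at 50.1, 59.1, 51.4 and 47.2 CPM in controls and 107, 109, 117 and 103 in knockouts (1.07). The age difference was 1.31 ± 0.08 (adjusted p = 5.67e-10), and the effect at PND1 was 0.64. Id1 (chr2:152736251-152737410) was at 90.7, 109, 124 and 114 CPM in ED17.5 controls and 68.3, 52.9, 48.4 and 58.2 in knockouts, and at 34.8, 42.4, 34.0 and 28.6 against 51.4, 44.7, 58.1 and 38.7 at PND4. Its groups were apart at ED17.5 and overlapped at PND4, with effects of -0.94 and 0.46 (adjusted p = 0.0214) and an age difference of 1.41 ± 0.20 (adjusted p = 0.000189). Id2 went from -0.30 (adjusted p = 0.0374, and 0.0866 without replicate 3) to 0.43, an age difference of 0.73 (adjusted p = 0.00376). In controls Id1 and Id3 fell by 1.65 and 1.68 with age; in knockouts Id3 fell by 0.37 and the change of Id1 was -0.24 (adjusted p = 0.152).

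Acvrl1, a type I receptor of endothelium for BMP9 and BMP10, went from -0.20 (adjusted p = 0.197) to 0.47, an age difference of 0.67 (adjusted p = 0.0136); without replicate 3 its fall at ED17.5 also passed (-0.36, adjusted p = 0.00907), so that it turned. Of 32 tested genes of the TGF-beta family, 8 were called higher and 8 lower at ED17.5 (11.1% and 12% of all genes), and 14 higher and 3 lower at PND4 (12.6% and 10.3%). The 6 with an age difference were the ligand Bmp2, the receptors Bmpr1b and Acvrl1 and the targets Id1, Id2 and Id3. They were all above 0, beside 2.8% of all genes, and all 6 also passed without replicate 3. Leaving out any 1 library gave 6 to 8 such genes by edgeR. DESeq2 called 6 of the family above 0 and 1 below. At an unadjusted p under 0.05 (edgeR), 10 were above 0 and 2 below. Without the ED17.5 libraries numbered 1 to 12, Acvrl1 (0.57, adjusted p = 0.126) and Id2 (0.61, adjusted p = 0.0929) did not pass. At ED17.5 Bmp2, Bmpr1b, Id1 and Id3 were lower in knockouts, and so was Id2 with all libraries, though not at the threshold without replicate 3. At PND4 Bmp2 and Bmpr1b did not differ at the threshold, although every Bmpr1b knockout value lay below every control value. The Id genes were higher at PND4.

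Shisa2 (chr14:59625308-59631660), of a family that holds back maturation of Wnt and FGF receptors, was at 64.0, 66.9, 60.8 and 63.7 CPM in ED17.5 controls and 35.3, 43.2, 40.7 and 27.6 in knockouts. At PND4 it was at 33.9, 31.6, 36.02 and 30.6 CPM in controls and 59.1, 62.9, 64.0 and 67.9 in knockouts. The genotypes traded places: controls fell by 0.95 with age and knockouts went up by 0.79, an age difference of 1.74 ± 0.15 (adjusted p = 1.94e-07). Thbs2, the matrix protein thrombospondin 2, was at 293, 306, 273 and 340 CPM in ED17.5 controls and 222, 207, 172 and 171 in knockouts, and at 110, 111, 138 and 103 against 204, 187, 190 and 177 at PND4. Its level in controls fell by 1.39 with age and its change in knockouts was -0.03 (adjusted p = 0.815), an age difference of 1.36 ± 0.14 (adjusted p = 2.43e-06). Cd44, a hyaluronan receptor, was at 79.4, 80.1, 73.1 and 87.4 CPM in ED17.5 controls and 46.1, 51.7, 33.5 and 46.8 in knockouts, and at 48.6, 40.5, 44.5 and 45.9 against 61.3, 56.8, 71.4 and 65.7 at PND4, again without overlap at either age (1.35 ± 0.15, adjusted p = 4.79e-06).

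Chodl, a C-type lectin, was at 12.6, 23.6, 15.8 and 20.0 CPM in ED17.5 controls and 5.18, 7.85, 4.19 and 3.35 in knockouts, and at 2.81, 5.58, 3.86 and 2.97 against 9.50, 8.402, 10.4 and 9.93 at PND4 (3.12 ± 0.33, adjusted p = 3.6e-06). Serpina3g, a serine protease inhibitor of a multigene cluster whose copies may share reads, was at 2.91, 3.44, 2.80 and 3.34 CPM in ED17.5 controls and 1.30, 0.693, 1.58 and 0.239 in knockouts, and at 5.62, 5.07, 5.57 and 5.68 against 12.4, 12.1, 14.5 and 12.3 at PND4 (2.93 ± 0.32, adjusted p = 4.3e-06). Both crossed without overlap at either age, which at the age of the larger effect was a condition of the choice. Lhfpl2 (0.92, adjusted p = 5.49e-06), Ptprb, a phosphatase of endothelium (1.08, adjusted p = 0.000382), Fabp7, a fatty acid binding protein (1.78, adjusted p = 0.00749), and Dio3os, a noncoding RNA antisense to Dio3 (1.97, adjusted p = 6.34e-05), also turned from lower to higher.

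Fam163a (chr1:156075966-156205026) turned the other way. It was at 1.69, 1.23, 1.09 and 0.514 CPM in ED17.5 controls and 3.81, 3.08, 2.45 and 3.43 in knockouts, and at 8.01, 6.02, 5.83 and 9.96 against 1.18, 1.83, 2.65 and 2.00 at PND4. Controls went up with age by 2.70 and knockouts fell by 0.74, an age difference of -3.43 ± 0.42 (adjusted p = 1.64e-05), with an effect of -0.08 at PND1. Aqp5, a water channel (-2.11, adjusted p = 0.000588), Tmc3, a transmembrane channel-like protein (-1.56, adjusted p = 0.000354), Cystm1 (-1.46, adjusted p = 0.000655) and Pitpnm3, a phosphatidylinositol transfer protein (-1.37, adjusted p = 0.000232), were also higher in ED17.5 knockouts and lower in PND4 knockouts. Pitpnm3 was still higher at PND1, by 1.12.

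**Figure D3:**
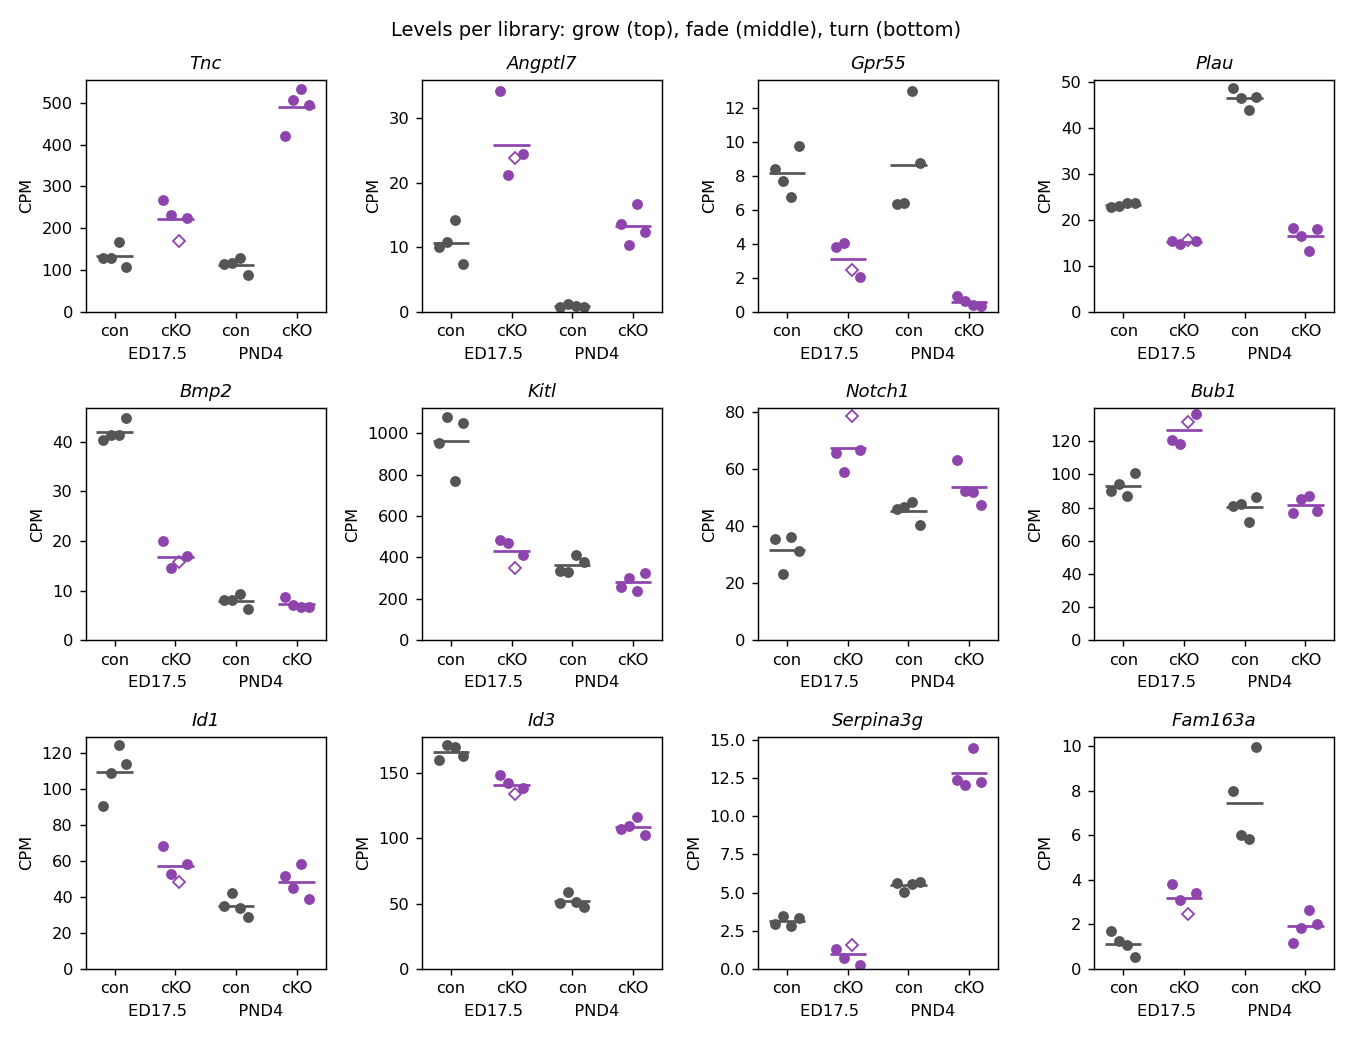
CPM in each library (y axes) of 12 genes in control and cKO at ED17.5 and PND4 (x axes), with a line at each group's mean and an open diamond for ED17.5 cKO replicate 3. The top panels show effects that grew (Tnc, Angptl7, Gpr55, Plau), the middle ones effects that faded (Bmp2, Kitl, Notch1, Bub1) and the bottom ones effects that turned (Id1, Id3, Serpina3g, Fam163a).

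In the lists of stroma, collagens and matrix, smooth muscle, surface epithelium and erythroid genes, at most 2 members had an age difference with all libraries. Without replicate 3 the list of collagens and matrix had 3, all above 0 (2.68% of all genes). Of 18 matrix proteases and inhibitors, 1 had an age difference above 0 (2.8% of all genes) and 2 below 0 (1.97%) with all libraries. Theca and stroma genes were called higher for 13 of 16 at ED17.5 (11.1% of all genes) and 11 at PND4 (12.6%), with medians of 0.73 and 0.82, and Meox1 and Pdgfrb were the 2 with an age difference, both above 0 (2.8%). Of 20 collagen and matrix genes 15 were called higher at each age (11.1% and 12.6% of all genes), and 2, Tnc and Lamc1, a laminin chain, had an age difference; that of Lamc1 (0.28, adjusted p = 0.0482) was lost in 14 of 16 fits leaving out 1 library. Smooth muscle and pericyte genes were called higher for 6 of 12 at ED17.5 (11.1% of all genes) and 9 at PND4 (12.6%), and no age difference passed by edgeR (2 at an unadjusted p under 0.05, and 1 by DESeq2). Timp2, an inhibitor of matrix proteases (0.40, adjusted p = 0.0378), Bmf, a pro-apoptotic BH3 protein (0.59, adjusted p = 0.0426), and Egr1, an immediate early factor (-1.24, adjusted p = 0.0311), did not pass without replicate 3 (adjusted p = 0.0634, 0.0811 and 0.072). Counting that fit, these were lost in 10, 12 and 9 of 16 fits leaving out 1 library. H2-K1 was higher at ED17.5 (0.62) and level at PND4 (0.04, adjusted p = 0.857); its age difference of -0.58 (adjusted p = 0.0361) was lost in 8 of 16 fits leaving out 1 library. Surface epithelium genes were called lower for 3 of 10 at ED17.5 (12% of all genes) and 6 at PND4 (10.3%), where 2 were called higher, with medians of -0.38 and -0.77. No age difference of these 10 passed by edgeR with all libraries (1 above and 3 below 0 at an unadjusted p under 0.05), 1 did without replicate 3 and 2 by DESeq2, all below 0. Of 10 erythroid genes none was called at either age or had an age difference by edgeR, 4 had an unadjusted p under 0.05 at PND4, and DESeq2 called 3 higher there. Their summed level ran from 211 to 4153 CPM in PND4 knockouts and 223 to 1117 in controls. At ED17.5 it ran from 3575 to 7150 CPM in controls and 2593 to 11617 in knockouts. There knockout replicate 1 was the lowest and replicates 2 and 4 were the highest knockouts, as for the summed proliferation genes. A link between the 2 was not tested.

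**Figure D4:**
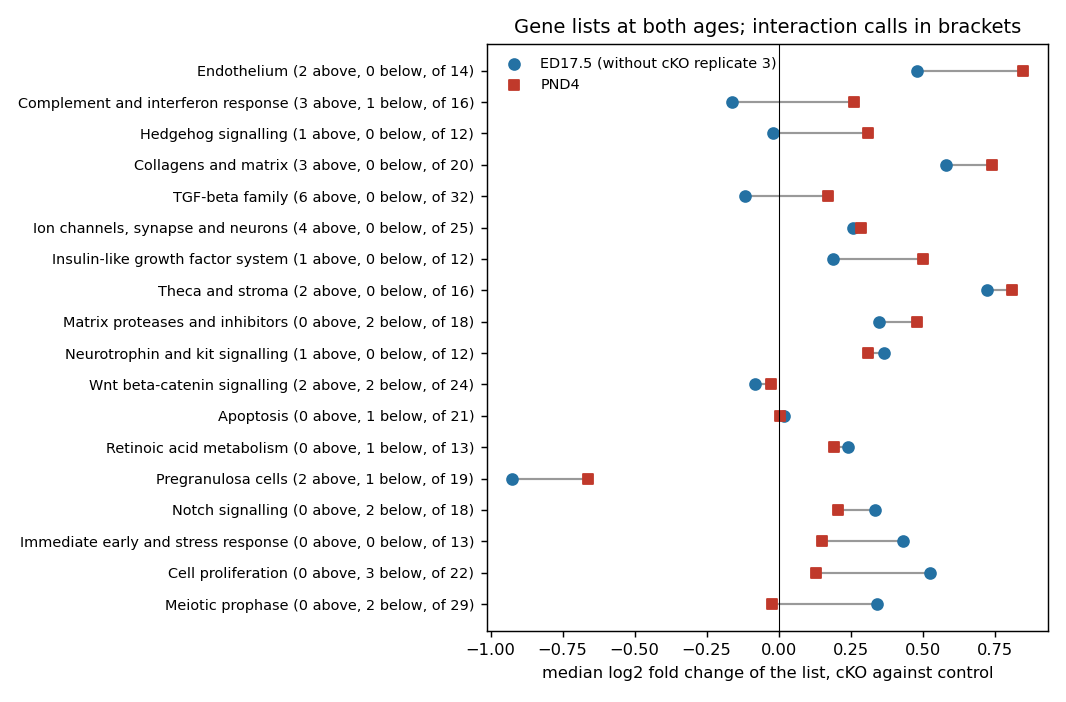
Median log2 effect of the knockout (x axis) at ED17.5 (circles) and PND4 (squares) for 18 gene lists (y axis), fitted without ED17.5 cKO replicate 3, with the number of members that had an age difference in brackets. Shown are the lists with such a member in the fit of all libraries, leaving out steroidogenesis and Sertoli cell markers. Lists of Leydig cell, growing-follicle granulosa and surface epithelium genes, with such members only without replicate 3, are also not shown. The median of proliferation genes lies nearer 0 at PND4, that of endothelial genes farther from it, and that of pregranulosa genes below it at both ages.

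For steroidogenic genes the age difference turned on ED17.5 knockout replicate 3. Cyp17a1, the enzyme of androgen synthesis, was at 3.30, 2.46, 2.18 and 2.74 CPM in ED17.5 controls and 0.729, 0.770, 441 and 0.717 in knockouts, and at 1.40, 1.69, 0.858 and 2.01 against 1.18, 0.917, 0.995 and 1.39 at PND4. With all libraries its age difference was -5.79 (adjusted p = 0.238). Without replicate 3 the effect was -1.84 at ED17.5 (adjusted p = 7.26e-05) and -0.42 at PND4 (adjusted p = 0.305), an age difference of 1.43 ± 0.41 (adjusted p = 0.0462). Hsd3b1, which forms progesterone, was at 69.9, 57.1, 39.7 and 77.0 CPM in ED17.5 controls and 24.5, 13.3, 317 and 13.9 in knockouts, and at 276, 290, 282 and 278 against 221, 200, 117 and 190 at PND4. Its age difference was -1.23 (adjusted p = 0.521) with all libraries and 1.19 ± 0.32 (adjusted p = 0.0391) without replicate 3. In the 15 libraries the effect of Hsd3b1 was -1.83 and -0.63. Without all 4 ED17.5 libraries numbered 13 to 24, replicate 3 among them, the age difference was 1.36 for Cyp17a1 (adjusted p = 0.144) and 1.65 for Hsd3b1 (adjusted p = 0.00326).

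Star, which carries cholesterol into mitochondria, was at 18.9, 22.9, 20.5 and 20.4 CPM in ED17.5 controls and 8.91, 9.77, 96.0 and 9.64 in knockouts, and at 16.9, 18.8, 20.5 and 23.3 against 6.83, 6.34, 8.45 and 9.75 at PND4. Without replicate 3 its effect was -1.13 and -1.35, with an age difference of -0.21 (adjusted p = 0.586), and with it -1.93 (adjusted p = 0.184). Cyp11a1, which makes the initial cut of the cholesterol side chain, and Amh, anti-Müllerian hormone, had age differences of -4.97 (adjusted p = 0.194) and -7.02 (adjusted p = 0.0663) with all libraries, and 0.47 (adjusted p = 0.682) and -0.54 (adjusted p = 0.848) without. Hsd17b3, the testicular enzyme of testosterone synthesis, was the 1 of 17 steroidogenic genes with an age difference in all libraries (4.77% of all genes; -7.49, adjusted p = 0.0437). It was at 15.4 CPM in replicate 3 and at most 0.162 in the other knockouts of ED17.5, and did not pass without that library (adjusted p = 0.351). With all libraries 3 steroidogenic genes were called higher and 2 lower at ED17.5 (11.1% and 12% of all genes), and 1 lower at PND4 (10.3%). Without replicate 3, 8 were called lower at each age (11.2% of all genes at ED17.5 and 11.3% at PND4). Cyp17a1 and Hsd3b1 were the 2 with an age difference, both above 0 (2.68% of all genes).

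**Figure D5:**
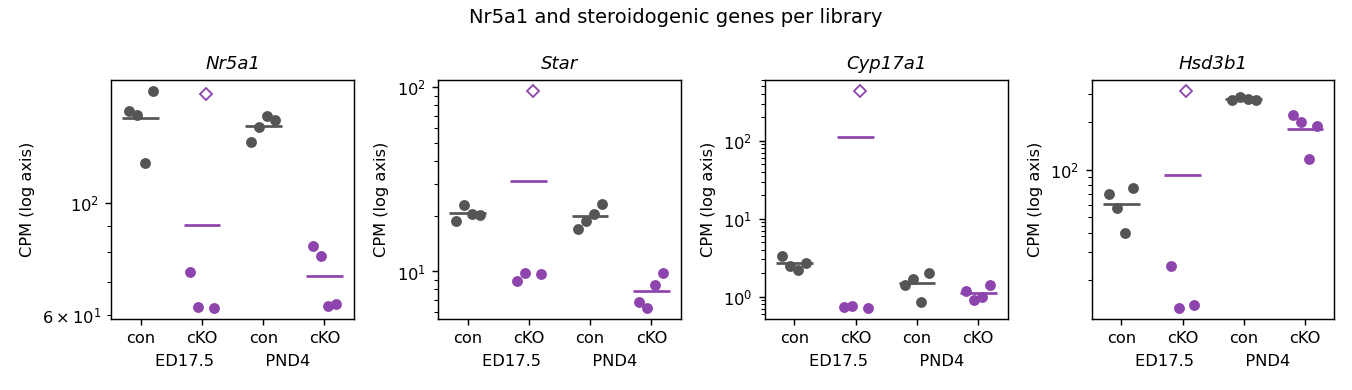
CPM in each library (y axes, log scale) of Nr5a1, Star, Cyp17a1 and Hsd3b1 in control and cKO at ED17.5 and PND4 (x axes), with the open diamond marking ED17.5 cKO replicate 3. That library lies above the other 3 ED17.5 knockouts in every panel, at 165, 96.0, 441 and 317 CPM.

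Promoters were searched on both strands for the letters CAAGGTCA, an extended half-site that SF-1 and related monomeric receptors bind, and for AAGGTCA inside it, from 250 bases before to 50 bases after the start of each gene (RefSeq, GRCm38.p6), which can lie inside a longer gene model. CAAGGTCA lay in 1.56% of 32851 promoters (AAGGTCA in 4.72%), and in 1.06% of the 16139 promoters of tested genes (3.46%). Among genes placed alike with and without replicate 3, it lay in 4 of 169 promoters of falls that faded (2.37%), 2 of 196 of genes that grew upward (1.02%), 1 of 127 that grew downward (0.787%), 1 of 87 rises that faded (1.15%) and none of the 17 and 20 of genes that turned. These counts are too few for a comparison, and a match is not a binding site. The 250 bases before the start are shown for Amhr2, whose age difference did not pass, and for 1 gene of each of 3 kinds of change, picked after their values were seen; capitals mark AAGGTCA.
Amhr2 (chr15:102445117-102445366, plus strand): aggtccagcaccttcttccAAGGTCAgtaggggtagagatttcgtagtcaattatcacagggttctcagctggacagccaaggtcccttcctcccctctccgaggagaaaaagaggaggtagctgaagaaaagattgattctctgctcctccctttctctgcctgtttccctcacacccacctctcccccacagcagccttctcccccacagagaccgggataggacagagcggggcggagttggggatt
Scpep1 (chr11:88955443-88955692, minus strand): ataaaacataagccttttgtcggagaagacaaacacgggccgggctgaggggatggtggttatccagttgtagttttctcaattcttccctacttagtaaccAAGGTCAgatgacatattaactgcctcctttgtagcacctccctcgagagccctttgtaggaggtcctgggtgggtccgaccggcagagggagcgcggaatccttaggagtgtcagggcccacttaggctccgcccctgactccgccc
Ak1 (chr2:32628140-32628389, plus strand): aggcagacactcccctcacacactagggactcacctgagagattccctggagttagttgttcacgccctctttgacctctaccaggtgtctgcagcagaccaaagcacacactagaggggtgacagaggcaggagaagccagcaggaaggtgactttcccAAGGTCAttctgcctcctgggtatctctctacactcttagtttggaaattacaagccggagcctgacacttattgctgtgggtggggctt
Casz1 (chr4:148889097-148889346, plus strand): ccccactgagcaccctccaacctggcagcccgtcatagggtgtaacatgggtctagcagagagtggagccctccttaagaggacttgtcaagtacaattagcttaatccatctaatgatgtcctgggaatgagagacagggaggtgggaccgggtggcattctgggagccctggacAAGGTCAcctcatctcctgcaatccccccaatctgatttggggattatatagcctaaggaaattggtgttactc
In Amhr2 the capitals begin at position -231 from the start, in Scpep1 at -148, in Ak1 at -90 and in Casz1 at -74. Scpep1, a serine carboxypeptidase, was at 157, 157, 139 and 157 CPM in ED17.5 controls and 91.3, 92.7, 102 and 90.8 in knockouts, and at 79.5 to 90.0 and 69.9 to 79.9 at PND4: its fall faded from -0.69 over -0.40 to -0.17 (adjusted p = 0.087), an age difference of 0.53 ± 0.10 (adjusted p = 0.0018). Msrb2, a methionine sulfoxide reductase with the same letters at -117, faded from -0.53 over -0.32 to 0.08 (0.62, adjusted p = 0.00143). Ak1, an adenylate kinase, was at 9.59 to 12.2 and 11.1 to 14.7 CPM at ED17.5 and at 6.44 to 8.15 and 12.0 to 17.5 at PND4, so it grew upward from 0.17 (adjusted p = 0.392) to 0.96 (0.79 ± 0.19, adjusted p = 0.0183, and 0.0579 without PND4 knockout replicate 4). Casz1, a zinc finger factor, was at 16.0 to 19.9 and 11.5 to 13.1 CPM at ED17.5 and at 17.7 to 26.4 and 9.70 to 11.1 at PND4, so its fall grew from -0.54 to -1.16 (-0.63 ± 0.17, adjusted p = 0.0295), which was lost in 6 of 16 fits leaving out 1 library (adjusted p up to 0.0711).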

How the data were processed

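Polyadenylated RNA of pooled whole ovaries was made into directional libraries, per the labels' protocols. The table holds raw counts per Ensembl gene as deposited by the authors; the submitters' processing notes name Trimmomatic, STAR, HTSeq, DESeq2 and GRCm38. The annotation release is not stated, and the strand setting of the counting is not given in the sources used here. Of 55487 gene IDs, 99.5% were found in GENCODE M21, which gave the coordinates. Here edgeR 4.0.16 (R 4.3.3, limma 3.58.1) kept 17435 genes (filterByExpr, minimum count 10, minimum total count 15) and fitted quasi-likelihood models of 6 group means to all 24 libraries with trimmed mean (TMM) factors of 0.968 to 1.02. Benjamini-Hochberg adjustment ran over all tested genes at a threshold of 0.05. CPM divide by the scaled library sizes. Standard errors are the log2 value over the square root of F. Replicates of a group differed beyond counting noise (chi-square over degrees of freedom 3.75 to 19.6 in 24 pairs). On simulated counts with 50 genes changed by each fold, the age difference was recovered for 22 at 1.5-fold, 38 at 2-fold, 48 at 3-fold and 50 at 4-fold, with 6 false calls. The simulated counts held no other genotype effect at ED17.5 or PND4, no testis library and no split by library number. Genes of low mean level were left unchanged in them. Recovery and false calls in the real libraries can therefore differ. Genes named were the 8 largest age differences of each kind and sign that passed with and without ED17.5 cKO replicate 3, averaged at least 1 CPM and had no overlap of the genotypes at the age of the larger effect, up to 5 members of each of 35 gene lists (492 genes tested) with a called member, and a fixed set around Nr5a1; Hsd17b3, Id2, Zp3, the Y-linked genes and the promoter genes other than Amhr2 lie outside this rule and were chosen after their values were seen. The comparison, lists and members were chosen with earlier results of these data known. Alternatives were DESeq2 1.42.0, its size factors, no filter, the 16 libraries alone, a replicate block, each library left out, and ED17.5 libraries of either number range left out.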

Additional observations from a re-analysis of the deposited data

Results flagged for a closer look

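The 4 libraries of each group were searched for single values far from the rest in 98 genes, and 28 of these sets of 4 held one by Dixon's criterion; chance gives about 5% of groups. ED17.5 knockout replicate 3 held 9 of these values: Nr5a1 at 165, Amh at 324, Cyp11a1 at 431, Cyp17a1 at 441, Star at 96.0, Hsd3b1 at 317, Hsd17b3 at 15.4, Ptgds at 40.4 and Scpep1 at 102 CPM. It is the library with Y-linked and Leydig cell transcripts. ED17.5 control replicate 3 held 5: Meox1 at 13.5, Emcn at 31.0, Igfbp3 at 136, Grhl3 at 0.779 and Scpep1 at 139 CPM. The other single values were Hc at 5.10, Tpx2 at 98.6 and Id2 at 145 CPM in ED17.5 knockout replicate 1, Cystm1 at 4.31 and Ak1 at 14.7 CPM in ED17.5 knockout replicate 2, Ky at 3.77 CPM in ED17.5 control replicate 2 and Cenpf at 145 CPM in ED17.5 control replicate 1. At PND4 they were Uckl1os at 1.66, Pmaip1 at 4.23 and Serpina3g at 14.5 CPM in knockout replicate 3, Trim66 at 2.28 CPM in knockout replicate 1, Msh5 at 4.81 CPM in knockout replicate 2, and Adamts9 at 161 and Igf2 at 16.6 CPM in control replicate 2.

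The effect of the knockout differed between ED17.5 and PND4, by the test of the difference itself, in 832 genes: in 411 it grew, in 346 it faded and in 58 it turned.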

How the results depend on the processing

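The count of genes with an age difference was 832 as reported, 1064 with DESeq2, 814 with its size factors, 628 without a filter and 577 with the 16 libraries alone, and every count of 8 kept within 1.5 times its value unless given here. DESeq2 gave 566 genes below 0. No filter gave 286 above 0. The 16 libraries alone gave 223 below 0 and 227 that faded. Leaving out the 4 ED17.5 libraries numbered 1 to 12 gave 365 genes, 177 above and 188 below 0, with 200 that grew, 115 that faded and 29 that turned, and 1379 called at ED17.5; leaving out those numbered 13 to 24 gave 662 genes, 315 above 0 and 186 that grew. Fewer libraries entered both fits. An age difference of at least 1 left 117, 63 and 25 genes that grew, faded and turned.

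Leaving out each of the 16 libraries in turn gave 556 to 1225 genes, 293 to 683 above and 252 to 542 below 0, with 260 to 620 that grew, 215 to 473 that faded and 41 to 91 that turned, and 3157 to 4287 called at ED17.5 and 3118 to 4251 at PND4. Counts moved by over 1.5 times without PND4 knockout replicate 1 (grew 620, turned 91, below 0 542), PND4 knockout replicate 4 (grew 260, above 0 301), PND4 control replicate 5 (grew 266), ED17.5 control replicate 2 (faded 215, above 0 311) and ED17.5 knockout replicate 4 (above 0 293).

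Replicate numbers did not pair the libraries (correlations of deviations -0.0867 to 0.183 over 7 pairs, 4 best with their own number). With the replicate block 916 genes had an age difference, 503 above and 413 below 0; Aldh1a2, Casz1, Ccnd1, Cenpf, Col11a2, Dll1, Kif11, Lamc1, Msh5, Pdgfrb, Pkhd1l1, Pmaip1, Rad21l, Timp2 and Tpx2 did not pass (adjusted p 0.054 to 0.186).

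Over 98 genes and all settings, 2026 values kept sign and call, 296 lost the call, 8 gained it and 18 changed sign, all but those of Amhr2 in genes high in ED17.5 knockout replicate 3. Without that library the age difference was 0.47 for Cyp11a1, 1.43 for Cyp17a1, 1.19 for Hsd3b1 and 0.18 for Nr5a1. Without the ED17.5 libraries numbered 13 to 24 it was 0.31 for Amh, 0.16 for Cyp11a1, 1.36 for Cyp17a1, 1.65 for Hsd3b1 and 0.35 for Nr5a1. With the replicate block it was 0.10 for Hsd3b1 and -0.065 for Amhr2. With the block and without that library, chosen after seeing the data, it was 0.73, 1.65, 1.23, 0.19 and -0.034 for Cyp11a1, Cyp17a1, Hsd3b1, Nr5a1 and Amhr2, and none of the 5 passed (Cyp17a1 adjusted p = 0.0821, Hsd3b1 adjusted p = 0.0784). Amhr2 was at -0.12 without the ED17.5 libraries numbered 1 to 12 and -0.071 to 0.15 with 1 library left out, the lowest without PND4 knockout replicate 1; over the same fits the lowest values were -5.40 for Cyp11a1, -6.22 for Cyp17a1, -1.61 for Hsd3b1 and -0.45 for Nr5a1. Calls lost without the ED17.5 libraries numbered 1 to 12 were those of Acvrl1, Ak1, Aldh1a2, Bmf, Boc, C4b, Casz1, Ccnd1, Cenpf, Col11a2, Dll1, Egr1, Emcn, Fabp7, Fndc7, H19, H2-K1, Hc, Id2, Ifit3, Igf2, Igfn1, Kif11, Kitl, Lamc1, Lrrc66, Notch2, Oprk1, Pdgfrb, Pkhd1l1, Pmaip1, Scpep1, Slc6a7, Timp2 and Tpx2. Calls lost without those numbered 13 to 24 were those of Ak1, Bmf, Bub1, C1ra, Casz1, Dkk3, Dll1, Egr1, Emcn, Fam107a, Fndc7, Grhl3, H19, H2-K1, Hes1, Hsd17b3, Igf2, Lamc1, Lgr6, Lrrc66, Msh5, Pdgfrb, Pmaip1, Rad21l, Rasl10a, Slc6a7 and Timp2. With 4 libraries a group, age differences near 1.5-fold were often missed on simulated counts, so a value that does not pass is not shown to be equal at both ages.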
